A study of Mus musculus with 4 samples.

Results

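The genes described here are 30 genes of the oligodendrocyte lineage, chosen by name to run from the dividing precursor to the mature myelinating cell, without a threshold on their measured values. All 30 were found among the 25044 entries of the expression tables, and all 30 reached the mean level of 0.1 FPKM required of the 17630 entries tested. FPKM, fragments per length of transcript and number of mapped fragments, allows levels of different genes to be compared per length.

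Oligodendrocytes wrap axons in myelin, a compacted membrane rich in lipid. They arise from precursor cells that leave the cell cycle, pass through a short premyelinating state and then switch on the genes of the sheath, under transcription factors such as SOX10, OLIG2 and MYRF. Precursors persist in the adult brain beside mature cells, so bulk tissue holds transcripts of every stage.

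The tissue was the PSTh, the parasubthalamic nucleus of the posterior lateral hypothalamus, taken from naive C57BL/6 mice in a study of anxiety-like behaviour after stress. The 4 libraries form a single control group without stressed animals, called replicates 1 to 4 after their titles. Age, sex and the number of animals behind a library were not stated in the labels. Nothing but the numbering says that the replicates are separate animals, and the p-values below cover only the spread among these 4 libraries, which may be technical.

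The summed FPKM per library lay between 428612 and 442836, and mitochondrial transcripts took 19.1% to 22.2% of it. The number of fragments behind each library is unknown. The median log2 level of the entries tested differed between libraries by at most 0.09. Markers of neurons and astrocytes were abundant in every library: 8 neuronal genes summed to 2056 to 2326 FPKM and 8 astrocytic genes to 964 to 1038 FPKM. The 6 genes of Schwann cells, which make peripheral myelin, summed to 8.77 to 11.1 FPKM. Among them Pmp2 was listed at 0 throughout.

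Mean levels of the 30 genes ran from 4560 FPKM for Mbp to 2.13 FPKM for Cspg4. There were 13 genes above 100 FPKM and 3 below 10 FPKM. The order was much the same in each library: 9 genes held their rank in all 4, and no gene moved by more than 3 ranks. Of the 29 pairs of neighbours in the order of means, 16 stood the same way round in all 4 libraries and 13 did not. Nkx6-2 and Olig2 could not be ordered, each being higher in 2 libraries. The same held for Sox10 and Opalin, for Aspa and Gjb1 and for Apod and Mal. Car2 had a higher mean than Mag but was above it in only 1 library. Exons of 11 of the 30 genes overlap those of another annotated gene, among them Cnp with Dnajc7, Ermn with Galnt5, Nkx6-2 with Inpp5a and Gpr17 with Lims2. Whether reads were counted by strand was not stated, so reads of such pairs may be mixed.

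**Figure D1:**
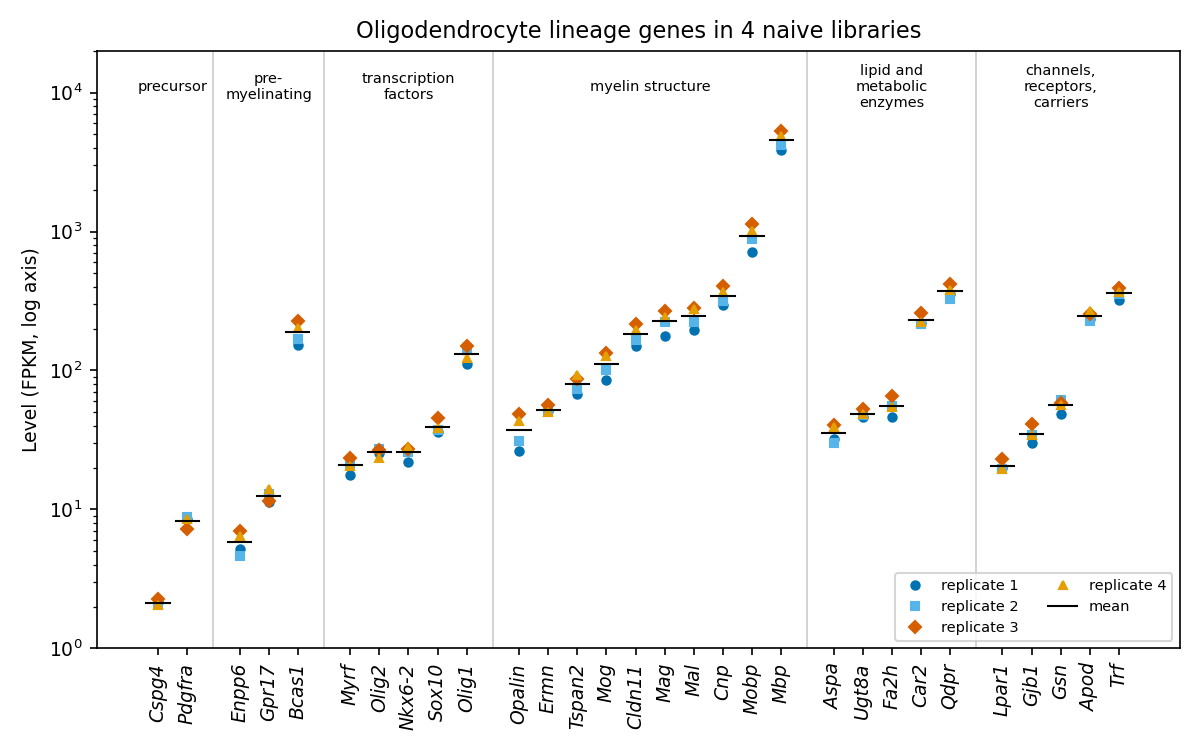
Level of each of the 30 genes (FPKM, log axis) in the 4 libraries, grouped by role; points are libraries and black lines are means. Mbp has the highest mean at 4560 FPKM and Cspg4 the lowest at 2.13 FPKM.

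Each gene was set against Sox10 inside each library, since SOX10 is made from the precursor to the mature stage. Sox10 (ENSMUSG00000033006, GRCm38 chromosome 15, 79154908 to 79165240) was at 36.1, 37.6, 45.3 and 38.8 FPKM in replicates 1 to 4, highest in replicate 3. Of the other 29 genes, 18 lay above Sox10, 8 lay below it and 3 did not pass (limma, Benjamini-Hochberg adjusted p under 0.05). Of all entries tested, 8.8% lay above Sox10 and 87.7% below it, so that a place below Sox10 is usual for any gene. Above it lay 9 of 10 myelin structure genes, 4 of 5 lipid and metabolic enzymes and 3 of 5 channels, receptors and carriers. Below it lay both precursor genes, 2 of 3 premyelinating genes and 3 of the other 4 transcription factors.

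The precursor stage was represented by Pdgfra and Cspg4. Pdgfra (ENSMUSG00000029231, GRCm38 chromosome 5, 75152292 to 75198215) encodes the receptor through which platelet-derived growth factor drives precursor division. It was at 8.50, 8.85, 7.22 and 8.49 FPKM in replicates 1 to 4, lowest in replicate 3, with the other 3 libraries close together. Its log2 difference from Sox10 was -2.24 (SE 0.12, limma adjusted p = 8.46e-07, lower in 4 of 4). Cspg4, which encodes the NG2 proteoglycan of the precursor surface, was at 2.15, 2.07, 2.26 and 2.07 FPKM and had the smallest spread of the 30 genes, with a ratio of 1.09 between the highest and the lowest library. Its log2 difference from Sox10 was -4.14 (SE 0.11, limma adjusted p = 1.23e-07, lower in 4 of 4). Outside the lineage Pdgfra is made by fibroblasts and Cspg4 by pericytes. The 10 mural cell and fibroblast genes summed to 119, 106, 92.3 and 88.0 FPKM in replicates 1 to 4, but went both ways. Against the mean of the other libraries, 6 of them were higher in replicate 1, where 49.9% of all entries were, and 4 were lower. Dcn, a fibroblast gene, was at 26.6, 25.4, 14.3 and 14.1 FPKM. Rgs5, a pericyte gene, was at 31.0, 32.1, 34.5 and 33.1 FPKM. The part of these cells in the levels of Pdgfra and Cspg4 was not tested.

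The premyelinating genes were uneven. Gpr17, a G protein-coupled receptor of committed cells before myelination, was at 11.4, 13.0, 11.5 and 14.1 FPKM in replicates 1 to 4. Enpp6, a choline phosphodiesterase of newly formed oligodendrocytes, was at 5.16, 4.61, 7.03 and 6.47 FPKM. They ranked the libraries differently, Gpr17 being highest in replicate 4 and Enpp6 in replicate 3, and the ratio of Gpr17 to Enpp6 ran from 1.64 in replicate 3 to 2.81 in replicate 2. The log2 difference from Sox10 was -1.65 (SE 0.11, limma adjusted p = 2.65e-06, lower in 4 of 4) for Gpr17. For Enpp6 it was -2.76 (SE 0.11, limma adjusted p = 1.70e-07, lower in 4 of 4). Bcas1, which marks early myelinating cells and persists in mature ones, was far above both at 154, 169, 229 and 203 FPKM, or 13.1 to 19.8 times the level of Gpr17. It was 4.73-fold above Sox10, a log2 difference of 2.24 (SE 0.08, limma adjusted p = 1.48e-07, higher in 4 of 4).

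Among the transcription factor genes Olig1 was the highest, at 111, 140, 150 and 122 FPKM in replicates 1 to 4, with a log2 difference from Sox10 of 1.72 (SE 0.08, limma adjusted p = 3.81e-07, higher in 4 of 4). Olig2, its neighbour on the chromosome and a factor needed to specify the lineage, was at 25.5, 27.4, 26.9 and 23.6 FPKM. The ratio of Olig1 to Olig2 lay between 4.37 and 5.56. Nkx6-2, a homeodomain factor gene, was at 22.1, 25.9, 27.4 and 28.1 FPKM. Myrf, the factor that drives transcription of myelin genes, was at 17.7, 21.2, 23.6 and 20.6 FPKM. Replicate 1 was the lowest for Olig1, Nkx6-2, Myrf and Sox10, while Olig2 was lowest in replicate 4. The log2 difference from Sox10 was -0.61 (SE 0.09, limma adjusted p = 0.000352, lower in 4 of 4) for Olig2. It was -0.61 (SE 0.09, limma adjusted p = 0.000269, lower in 4 of 4) for Nkx6-2 and -0.92 (SE 0.08, limma adjusted p = 1.46e-05, lower in 4 of 4) for Myrf. Against Olig2 in place of Sox10, Nkx6-2 was at -0.00368 and did not pass (limma adjusted p = 0.968). With values multiplied back by transcript length the difference of Myrf turned to 0.10 and did not pass.

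The structural genes of the sheath reached the highest levels. Mbp encodes myelin basic protein, which holds the cytoplasmic faces of the membrane together. It was at 3859, 4197, 5293 and 4893 FPKM in replicates 1 to 4 and ranked first of the 30 genes in every library. It was 115-fold above Sox10, a log2 difference of 6.84 (SE 0.09, limma adjusted p = 8.31e-08, higher in 4 of 4). Mobp (ENSMUSG00000032517, GRCm38 chromosome 9, 120149707 to 120181484), which encodes a small basic protein of compact myelin, was at 718, 886, 1128 and 1005 FPKM and 23.4-fold above Sox10, a log2 difference of 4.55 (SE 0.09, limma adjusted p = 1.23e-07, higher in 4 of 4). Cnp, the phosphodiesterase of the non-compact sheath, was at 294, 316, 403 and 364 FPKM. Mal, a proteolipid of sheath membranes, was at 194, 224, 284 and 278 FPKM. Cldn11, the claudin of tight junctions within the sheath, was at 151, 166, 216 and 195 FPKM. In each of Mbp, Mobp, Cnp, Mal and Cldn11 replicate 1 was the lowest, replicate 2 the next and replicate 3 the highest.

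Among the other structural genes, Mag and Mog ranked the libraries as these 5 did. Mag, an adhesion protein facing the axon, was at 177, 223, 268 and 241 FPKM in replicates 1 to 4. Mog, an immunoglobulin-like protein of the outermost layer, was at 84.8, 101, 133 and 127 FPKM, and the ratio of Mag to Mog stayed between 1.91 and 2.20. Tspan2, a tetraspanin, was at 67.9, 73.2, 86.2 and 93.0 FPKM, with replicate 4 rather than replicate 3 the highest. Opalin (ENSMUSG00000050121, GRCm38 chromosome 19, 41061710 to 41077113), which encodes a membrane glycoprotein of mature oligodendrocytes, was at 26.2, 31.3, 48.8 and 43.0 FPKM. The ratio of 1.86 between replicates 3 and 1 was the largest among the 30 genes. The log2 difference of Opalin from Sox10, -0.12 (SE 0.12, limma adjusted p = 0.373, lower in 2 of 4), did not pass. Ermn (ENSMUSG00000026830, GRCm38 chromosome 2, 58045113 to 58052864), which encodes the cytoskeletal protein ermin of late stages, was nearly level at 51.2, 50.1, 56.7 and 49.98 FPKM. The ratio of Opalin to Ermn was 0.512 in replicate 1, 0.624 in replicate 2 and 0.861 in both replicates 3 and 4.

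The enzymes of myelin lipid and metabolism came next. Ugt8a, the galactosyltransferase that makes galactosylceramide, was at 46.1, 48.1, 53.1 and 48.5 FPKM in replicates 1 to 4, a log2 difference from Sox10 of 0.31 (SE 0.07, limma adjusted p = 0.00473, higher in 4 of 4). Fa2h, which hydroxylates the fatty acids of that lipid, was at 46.1, 55.7, 65.2 and 54.6 FPKM, a difference of 0.48 (SE 0.08, limma adjusted p = 0.000586, higher in 4 of 4). Ugt8a was thus steady while Fa2h was lowest in replicate 1 and highest in replicate 3. Aspa, which splits N-acetylaspartate and so frees acetate for lipid synthesis, was at 31.9, 29.9, 40.4 and 38.9 FPKM and did not pass against Sox10, at -0.17 (SE 0.09, limma adjusted p = 0.0972, lower in 3 of 4). Car2, carbonic anhydrase 2, was at 221, 217, 259 and 224 FPKM. Qdpr, which regenerates tetrahydrobiopterin, was at 355, 329, 420 and 382 FPKM. For Aspa, Car2 and Qdpr replicate 2 was the lowest library, and for all 5 enzymes replicate 3 was the highest.

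Among the channels, receptors and carriers, Trf, which encodes the iron carrier transferrin, was at 324, 354, 394 and 368 FPKM in replicates 1 to 4. Apod, the lipid carrier apolipoprotein D, was at 235, 228, 254 and 268 FPKM. Gsn, which encodes the actin-severing protein gelsolin, was lowest in replicate 1 at 48.7 FPKM and highest in replicate 2 at 61.5 FPKM. Trf is also made by choroid plexus, and the 6 choroid plexus and ependyma genes summed to 11.7, 12.6, 10.8 and 62.3 FPKM in replicates 1 to 4. A single gene of that list made up 49.7 FPKM of the sum in replicate 4 and 0.587 to 1.99 FPKM in the other libraries, and the part of choroid plexus in the level of Trf was not tested. Gjb1, the gap junction protein connexin 32, was at 30.1, 34.3, 40.9 and 34.6 FPKM and missed the threshold against Sox10, at -0.18 (SE 0.08, limma adjusted p = 0.0560, lower in 4 of 4). It passed without replicate 3 (limma adjusted p = 0.0112), with no filter on low values (limma adjusted p = 0.0198) and, at a log2 difference of -0.99, with values multiplied back by transcript length (limma adjusted p = 9.53e-06). With Olig2 as the reference its difference turned to 0.43 (limma adjusted p = 0.00160). Lpar1, a receptor for lysophosphatidic acid, was at 20.0, 19.5, 23.1 and 19.6 FPKM, a log2 difference from Sox10 of -0.94 (SE 0.08, limma adjusted p = 1.12e-05, lower in 4 of 4).

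The stages were then compared within libraries. The mature stage was taken as 13 myelin and lipid genes, namely the 10 structural genes with Ugt8a, Fa2h and Aspa. Their mean log2 level exceeded that of the precursor genes by 4.85, 5.01, 5.42 and 5.25 in replicates 1 to 4, with a mean of 5.13 ± 0.251 (SD, n = 4). The premyelinating genes exceeded the precursor genes by 2.26, 2.31, 2.68 and 2.63, with a mean of 2.47 ± 0.217 (SD, n = 4). Without Bcas1 that mean was 0.988 ± 0.186 (SD, n = 4). Replicates 1 and 2 were lower than replicates 3 and 4 in all 3 quantities. The precursor mean itself spanned 0.08 on the log2 scale between libraries and the myelin and lipid mean 0.48. That precursor mean rests on 2 genes that moved apart in replicate 3. Against the mean of the other libraries Pdgfra was at -0.25 there and Cspg4 at 0.11.

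Further genes of the same stages were taken from lists. All 10 other precursor genes lay below Sox10, where 87.7% of all entries tested lay as well. They summed to 116, 117, 109 and 118 FPKM in replicates 1 to 4. Of 18 other myelinating genes 7 lay above Sox10, against 8.8% of all entries, and 9 lay below it. Their sums were 1338, 1621, 1971 and 1896 FPKM. The sum of the precursor list was nearly level, but its genes went both ways. Set against the mean of the other libraries, 7 of the 10 were lower in replicate 1, with a median log2 difference of -0.11 and a range from -0.51 to 0.44. In replicate 2, 9 of the 10 were higher, with a median of 0.10. Of all 17630 entries tested, 8833 were lower in replicate 1 and 59.1% were higher in replicate 2. C1ql1, which encodes a secreted protein of the C1q family and was picked after its values were seen, was highest in replicate 1 at 34.4 FPKM and at 22.3 to 29.9 FPKM in the others. The sum of the myelinating list was lowest in replicate 1 and highest in replicate 3.

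The share of myelin transcripts was taken over the FPKM of entries with an Ensembl identifier that are not encoded by mitochondria. The 13 myelin and lipid genes took 1.69%, 1.87%, 2.40% and 2.18% of it in replicates 1 to 4, with a mean of 2.03% ± 0.317 (SD, n = 4). The highest share was 1.42 times the lowest. Mbp alone made up 66.0% ± 0.760 (SD, n = 4) of the summed level of these genes, a proportion that hardly moved. The precursor genes took 0.00305% ± 0.000164 (SD, n = 4). Set against the 8 neuronal genes, the summed myelin and lipid level was 2.66, 2.99, 3.47 and 3.62 times as high. Against the 8 astrocytic genes it was 5.53, 6.23, 8.38 and 7.62 times. Against the microglia genes it was 43.6, 39.7, 57.2 and 50.5 times, and against the endothelial genes 41.1, 50.2, 57.2 and 60.4 times. The order of libraries thus depended on the list: replicate 4 was highest against neurons and endothelium, and replicate 2 lowest against microglia. In bulk tissue fewer oligodendrocytes and less RNA per oligodendrocyte cannot be told apart.

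**Figure D2:**
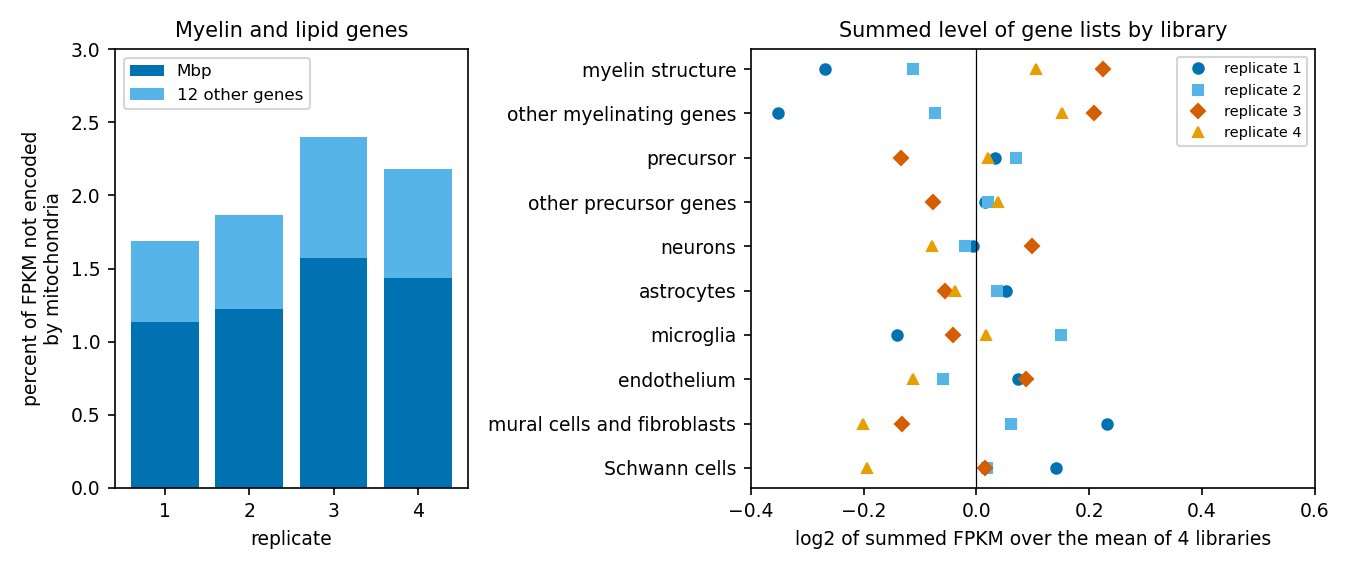
Left, percent of FPKM not encoded by mitochondria taken by Mbp and by 12 other myelin and lipid genes in each library (stacked bars from 0); right, log2 of the summed FPKM of each gene list over its mean in the 4 libraries, 1 point per library. The share runs from 1.69% in replicate 1 to 2.40% in replicate 3, and replicate 1 lies farthest left in both myelin lists.

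Each library was also compared with the mean of the other 3 as a log2 difference per gene. With 1 library on a side there is no test, and a difference of 0.32 or more on the log2 scale was counted. In replicate 1 the median difference of the 30 genes was -0.27, while that of all entries tested was -0.00065. There 28 of the 30 genes were lower, and so were 8833 of the 17630 entries tested. Past 0.32, 8 genes were lower against 13.4% of all entries, and 0 were higher against 13%. These shares cover entries of every level, and spread was larger at low levels. The typical SD of genes of like level was 0.21 for Cspg4 and 0.07 for Mbp. Small counts past 0.32, here and below, are therefore not set against entries of like level. Replicate 1 held the lowest value of 20 genes, against 28.5% of all entries, and the highest of 0, against 26.9%.

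Replicate 3 was the reverse. The median difference was 0.26, while that of all entries was -0.05. There 28 of the 30 genes were higher, against 41.9% of all entries. Past 0.32, 8 genes were higher against 11.8% of all entries, and 0 were lower against 17.1%. Replicate 3 held the highest value of 23 genes, against 22.5% of all entries, and the lowest of 1, Pdgfra, against 35.9%.

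Replicates 2 and 4 stood between, with medians of -0.08 and 0.09. In replicate 2, 1 gene, Enpp6 at -0.41, was lower past 0.32, against 9.21% of all entries, and 0 were higher past it, against 14.2%. In replicate 4, 1 gene, Opalin at 0.33, was higher past it, against 10.5% of all entries, and 0 were lower past it, against 11.1%. Replicate 2 held 3 highest values, against 29.1% of all entries, and 6 lowest, against 16.8%. Replicate 4 held 4 highest, against 21.5%, and 3 lowest, against 18.8%.

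The size of the shift differed by role. In replicate 1 all 10 structural genes were lower, with a median log2 difference of -0.38, and 6 were past 0.32. Opalin was at -0.62, Mog at -0.49 and Mobp at -0.48, whereas Ermn was at -0.03. The transcription factors had a median of -0.29, the channels, receptors and carriers -0.20 and the lipid and metabolic enzymes -0.11. Pdgfra at 0.06 and Cspg4 at 0.01 were the 2 genes that were not lower. In replicate 3 the structural genes had a median of 0.33, with Opalin at 0.57 and Mobp at 0.39, and the genes below 0 were Pdgfra at -0.25 and Gpr17 at -0.14. Of the 18 other myelinating genes, 16 were lower in replicate 1 and 17 were higher in replicate 3, with medians of -0.24 and 0.29. Of all 17630 entries tested, 8833 were lower in replicate 1, 13.4% of all past 0.32, and 41.9% were higher in replicate 3.

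**Figure D3:**
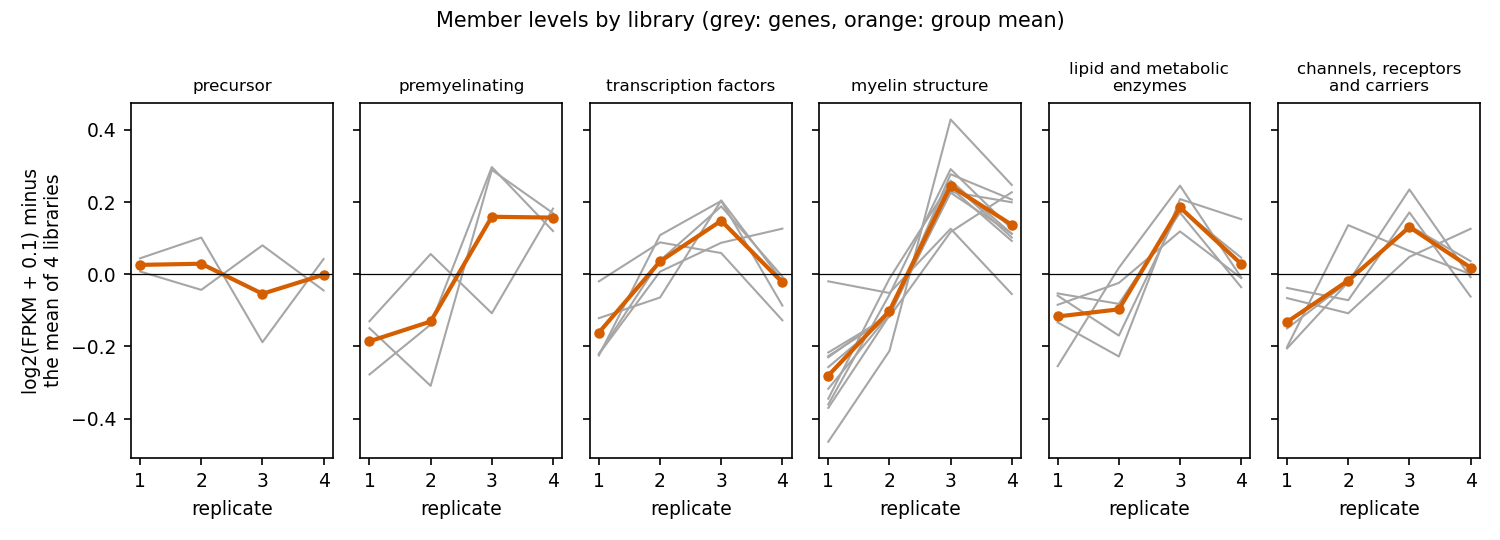
Difference of each gene's log2(FPKM + 0.1) from its mean over the 4 libraries, by role; grey lines join the values of 1 gene and the orange line is the group mean. The 10 structural genes are all below 0 in replicate 1 and all above 0 in replicate 3. The mean of the 2 precursor genes stays near 0, but in replicate 3 Pdgfra lies below 0 and Cspg4 above it.

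Markers of other cell types were read in the same libraries. In replicate 1 the neuronal list had a median log2 difference of -0.02, with 4 of 8 genes lower, and the astrocyte list one of 0.05, with 8 of 8 higher. The microglia list was at -0.16 and the mural cell and fibroblast list at 0.56, with 6 of its 10 genes higher past 0.32. Its other 4 genes, Pdgfrb, Rgs5, Kcnj8 and Abcc9 of pericytes, were lower, with a lowest value of -0.26. The endothelium list was at -0.08, the choroid plexus and ependyma list at -0.04 and the 4 Schwann cell genes that passed the filter at -0.12. In replicate 3 the neuronal list was at 0.01, the astrocyte list at -0.02 and the microglia list at -0.04. The mural cell and fibroblast list was at -0.15 in replicate 3, with the same 4 pericyte genes higher and the other 6 lower. There the endothelium list was at 0.09, with 5 of 5 genes higher, the choroid plexus and ependyma list at -0.56, with 4 of 6 genes lower past 0.32, and the 4 Schwann cell genes at 0.53, with 3 higher past 0.32. Of all entries tested, 49.9% were higher in replicate 1 and 41.9% in replicate 3. Past 0.32, 13% were higher in replicate 1, and 11.8% were higher and 17.1% lower in replicate 3. The part of these other cell types in the shift of the lineage genes was not tested.

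The spread of each gene between libraries was set against that of genes of like level, as the ratio of its variance to limma's trended prior variance. The ratio was above 1 in 25 of the 30 genes, against 47.3% of all entries, and its median was 3.34 against 0.930. Opalin had the largest ratio at 16.8, followed by Mobp at 13.4, Mog at 11.6 and Mal at 10.2. The limma variance test gave 9 genes an unadjusted p under 0.05, against 5.85% of all entries: these 4 and Mag, Bcas1, Mbp, Cldn11 and Cnp. Without replicate 1 the number was 2, and with no filter on low values it was 0. At an adjusted p under 0.05 it called 0 of the 30 genes and 0% of all entries. In simulated data the adjusted test found 0% of genes given 100-fold variance, so this lack of calls carries no information on how the genes varied. Ratios below 1 were those of Pdgfra at 0.925, Olig2 at 0.837, Ermn at 0.798, Ugt8a at 0.786 and Cspg4 at 0.0761.

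Much of the spread of the sheath genes was shared among them. This comparison was chosen after the values were seen, describes 4 libraries and carries no test. When the mean log2 level of the other myelin and lipid genes was subtracted in each library, the SD of Mbp between libraries went from 0.21 to 0.02. That of Cldn11 went from 0.23 to 0.02, that of Cnp from 0.20 to 0.03 and that of Bcas1 from 0.26 to 0.05. The SD became smaller in 11 of the 13 myelin and lipid genes, in 20 of the 30 genes and in 18.6% of the 17600 other entries. Opalin kept part of its spread, from 0.41 to 0.21. The SD became larger for Pdgfra, from 0.13 to 0.32, for Olig2, from 0.10 to 0.24, for Gpr17, from 0.15 to 0.23, and for Cspg4, from 0.06 to 0.20. Within the mature stage it became larger for Ermn, from 0.09 to 0.19, and Ugt8a, from 0.09 to 0.16. The mean of the 13 genes itself had an SD of 0.22 between libraries. Subtracting it must widen a gene of much smaller SD, whatever its course. This applies to Cspg4, Olig2, Ermn and Ugt8a, whose increases therefore do not tell how they moved. It also lowers the 18.6% of other entries.

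**Figure D4:**
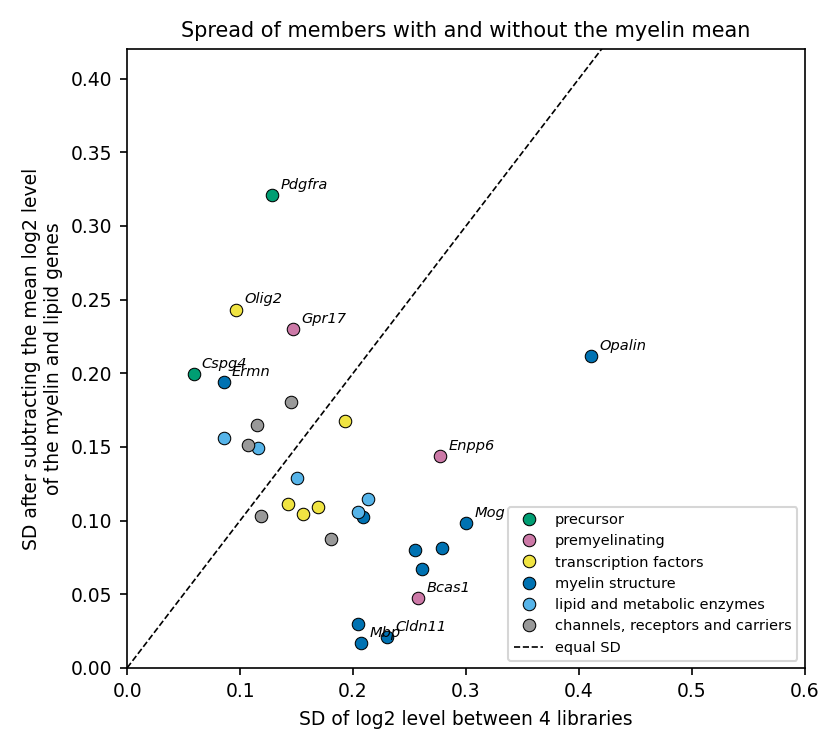
SD of each gene's log2 level between the 4 libraries (x axis) and after subtracting the mean log2 level of the myelin and lipid genes, the gene itself left out (y axis), coloured by role; the dashed line marks equal SD. Mbp, Cldn11 and Bcas1 lie at 0.05 or less after the subtraction, Pdgfra lies at 0.32 above the line, and Opalin lies farthest right at 0.41.

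Promoters of the 30 genes were searched for motifs of lineage factors, as a description of sequence and apart from the spread between libraries. RefSeq windows on GRCm38.p6 were matched for 21 of the 30 genes, and the 250 bases before each start were searched on both strands for ACAAAG, a motif of SOX factors, and for CAGCTG, an E-box of basic helix-loop-helix factors; these motifs do not overlap each other. ACAAAG was found in 8 of the 21 genes and in 11 of their 31 windows, against 16.5% of all 32851 windows. CAGCTG was found in 2 of the 21 genes and in 3 of the 31 windows, against 13% of all windows. A match is a description and not a binding site.

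Windows are shown for Opalin, Mobp and Mog, which had the 3 largest variance ratios, and for Ermn, the steadiest structural gene; they were picked after the values were seen. They run 5′ to 3′ on the strand of the gene, with ACAAAG or its reverse complement in capitals. Opalin is at chr19:41077114-41077363 on the minus strand with 1 match, Mobp at chr9:120149492-120149706 on the plus strand with 6 matches, Mog at chr17:37023399-37023648 on the minus strand with 0 matches, and Ermn at chr2:58052865-58053114 on the minus strand with 0 matches. Of the Mobp window the last 35 bases, which lie inside a GENCODE transcript, are left out.
Opalin: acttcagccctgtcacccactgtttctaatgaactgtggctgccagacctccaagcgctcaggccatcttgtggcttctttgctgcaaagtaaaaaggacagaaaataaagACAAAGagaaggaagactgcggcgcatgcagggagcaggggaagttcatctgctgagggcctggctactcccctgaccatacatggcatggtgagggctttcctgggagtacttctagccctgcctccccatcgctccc
Mobp: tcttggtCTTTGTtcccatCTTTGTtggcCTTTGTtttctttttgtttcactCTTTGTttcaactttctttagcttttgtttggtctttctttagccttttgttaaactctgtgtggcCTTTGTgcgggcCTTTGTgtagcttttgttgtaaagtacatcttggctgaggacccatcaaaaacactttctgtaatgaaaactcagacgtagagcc
Mog: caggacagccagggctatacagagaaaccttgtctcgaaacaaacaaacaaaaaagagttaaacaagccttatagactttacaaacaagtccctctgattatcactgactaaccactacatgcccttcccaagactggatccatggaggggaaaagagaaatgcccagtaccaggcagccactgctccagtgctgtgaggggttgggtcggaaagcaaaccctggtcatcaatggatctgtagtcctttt
Ermn: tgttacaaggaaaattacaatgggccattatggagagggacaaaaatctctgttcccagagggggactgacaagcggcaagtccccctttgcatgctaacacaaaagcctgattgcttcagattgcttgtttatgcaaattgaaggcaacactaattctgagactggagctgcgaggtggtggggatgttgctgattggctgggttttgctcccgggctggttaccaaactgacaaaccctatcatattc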

How the data were processed

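RNA was extracted with TRIzol and made into dual-mode mRNA libraries for Illumina, per the labels' protocols, with GRCm38 as the build, per the submitters' processing notes. Aligner, counting program, annotation and strand setting are not stated in labels or headers. What the authors deposited was read as FPKM from the behaviour of the values, since the unit is not named there either. A search for the value of 1 read in the low values gave no reliable depth, so no counting intervals are given. One column headed with a C in place of a number was assigned to replicate 3 by its sample title.

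GENCODE M21 gave symbols for 22022 of 22036 Ensembl identifiers; 3008 entries had none. Levels were log2(FPKM + 0.1), which compresses differences of low genes, for entries whose mean reached 0.1 FPKM. Gene minus Sox10 was fitted by an intercept in limma 3.58.1 (R 4.3.3), two-sided, Benjamini-Hochberg over 17629 entries, threshold 0.05. The prior was trended over level and its degrees of freedom limited to the 3.78 of the levels themselves. The trend was chosen after an untrended fit had been seen; both gave 18 genes above and 8 below. The variance test used a robust trended prior. In simulated data of 17630 genes the Sox10 fit found 2% of genes differing by 0.5 on the log2 scale. It found 100% of those differing by 1, and 0.740% of unchanged genes had an unadjusted limma p under 0.05. In the measured data 8.8% of entries passed above Sox10 and 87.7% below it, and Ugt8a passed at 0.31. Whether the 2% holds for a fit with so many entries passing was not tested. The simulation was revised together with the prior. Python 3.11.15 did the rest. All 30 genes are named, and other genes are given as lists, with the few named among them picked after their values were seen. The members, lists and tests were chosen with earlier results of these data known. Alternatives were other pseudocounts, filters, priors, scalings, a reference gene, length and leaving out each library.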

Additional observations from a re-analysis of the deposited data

Results flagged for a closer look

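The 30 gene levels, the 2 stage differences and the myelin share, 33 values in all, were each searched for a library far from the rest with Dixon's test, which chance alone passes in about 5% of groups. It marked 2 values, both through replicate 3. The level of Car2, carbonic anhydrase 2, was 259 FPKM there, while the other libraries ranged from 217 to 224 FPKM. That value was barely past the critical value of the test. The level of Lpar1, the lysophosphatidic acid receptor, was 23.1 FPKM there, and the other libraries ranged from 19.5 to 20.0 FPKM.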

How the results depend on the processing

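Of 29 genes set against Sox10, 24 stayed on their side under each of the 12 alternatives (11 for Olig2, which is the reference in the other). With Olig2 as the reference, Opalin, Aspa and Gjb1 turned to 0.49, 0.44 and 0.43 and Nkx6-2 no longer passed at -0.00368; with FPKM multiplied back by transcript length, Myrf turned to 0.10 and Aspa to 0.42, and Gjb1 passed at -0.99. The lead of myelin and lipid genes over precursor genes was 4.83 with a pseudocount of 1, 4.67 by medians and 3.87 with length undone; that of premyelinating genes was 1.54 by medians and 1.68 with length undone. The myelin share was 1.61% of all FPKM and 0.692% without Mbp. The cause of the other shifts was not tested. The count of 9 genes at an unadjusted p under 0.05 in spread was 0 with no filter and 2 without replicate 1. Medians of each library against the others kept their sign under both scalings, a pseudocount of 1 and leaving out each other library. The untrended limma prior was added after the data were seen. No paired analysis was possible because there is a single group. The inferred unit, the unknown depth and 4 libraries limit all values.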

Other observations

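The 11 genes listed for sterol and sphingolipid synthesis, which supply membrane lipid, went different ways between libraries. They summed to 431, 454, 441 and 466 FPKM in replicates 1 to 4. In limma 4 of them lay above Sox10 and 6 below at an adjusted p under 0.05. Among all entries tested, 8.8% lay above Sox10 and 87.7% below it. Cers2, a ceramide synthase gene, was at 54.9, 58.9, 68.9 and 63.2 FPKM, and Elovl1, a fatty acid elongase gene, at 19.2, 20.4, 26.1 and 21.1 FPKM, which is the order of libraries seen in Mbp. Gal3st1, which encodes the sulfotransferase that makes sulfatide, was at 16.1, 16.4, 19.9 and 17.8 FPKM, and Elovl7, another elongase gene, at 7.42, 7.19, 9.11 and 8.33 FPKM, also highest in replicate 3. Sqle, the squalene epoxidase gene of sterol synthesis, was at 38.7, 41.4, 32.5 and 40.7 FPKM, lowest in replicate 3. Against the mean of the other libraries, 4 of the 11 were higher in replicate 3, where 41.9% of all entries tested were, and 3 of the 11 in replicate 1, where 49.9% were. Log2 differences in replicate 3 ran from -0.31 to 0.36. These genes were picked after their values were seen.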
